A study of Mus musculus with 7 samples.

Results

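The genes described here make up the GABA system of the beta cell: the 2 GABA-synthesising enzymes Gad1 and Gad2, the 2 GABA-degrading enzymes Abat and Aldh5a1, the GABA-B receptor subunits Gabbr1 and Gabbr2, the GABA-A receptor subunit Gabra4 and the vesicular GABA transporter Slc32a1. They were chosen by gene, as the non-control probes whose accession is a RefSeq transcript of one of these genes, which gave 10 probes for 8 genes, out of 56605 probes and 22911 genes with a symbol. They were measured in MIN6 cells, an insulin-secreting line derived from a mouse insulinoma, treated for 3 days with MPE, the polysaccharide extract of Maidong (4 arrays), or with the vehicle, phosphate-buffered saline (3 arrays). Both groups grew in the same serum-containing medium with 2-mercaptoethanol. The treatment protocol names several MPE concentrations, the highest 50 μg/mL, without saying which was used for the arrays. No label says that replicates are separate cultures, and the p-values therefore reflect only the variation among these samples, possibly technical.

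GABA is made from glutamate by glutamate decarboxylase, whose isoforms are encoded by Gad1 and Gad2. Beta cells are among the few cells outside the nervous system that hold much GABA, and the Gad2 product is a well-known autoantigen of type 1 diabetes. GABA is broken down in mitochondria by GABA transaminase (Abat) and succinic semialdehyde dehydrogenase (Aldh5a1), which together return its carbon to the tricarboxylic acid cycle as the GABA shunt. Released GABA acts on chloride channels (GABA-A receptors) and on a G protein-coupled heterodimer (GABA-B receptor), and both kinds of receptor have been described in islets.

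The scanner software flagged 27902 to 28465 probes as well above background on each MPE array and 29496 to 30111 on each vehicle array. The smallest processed intensity flagged in this way lay at 20.6 to 24.4 with MPE and at 12.6 to 15.5 with vehicle, so that dim probes met a higher threshold with MPE. All arrays lay on 1 slide, with MPE in its second row and vehicle in its first, so row on the slide cannot be told apart from treatment. All 10 beta-cell markers examined, among them Ins1, Ins2, Pdx1 and Mafa, were well above background on all 7 arrays. Of 7 neuronal markers, Elavl3, Elavl4, Nefl, Nefm and Syn1 were well above background on all arrays, and Rbfox3 and Slc17a7 were so on none.

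MIN6 cells had signal for synthesis, breakdown and reception of GABA, and none well above background for its vesicular transporter. Gad1, Gad2, Abat, Aldh5a1, Gabbr1, Gabbr2 and Gabra4 each had a probe well above background on all 7 arrays, and Slc32a1 had 0 of 7. None of the 7 genes that could be tested differed between MPE and vehicle past the threshold, and the estimates lay between 0.941 and 1.08 times vehicle. All levels below are log2 processed intensities relative to the 75th percentile of the same array, with negative values below that percentile. Probes differ in their binding, so levels are compared between arrays for 1 probe and not between genes. As the samples were bulk RNA, fewer expressing cells and less RNA per cell cannot be told apart.

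**Figure D1:**
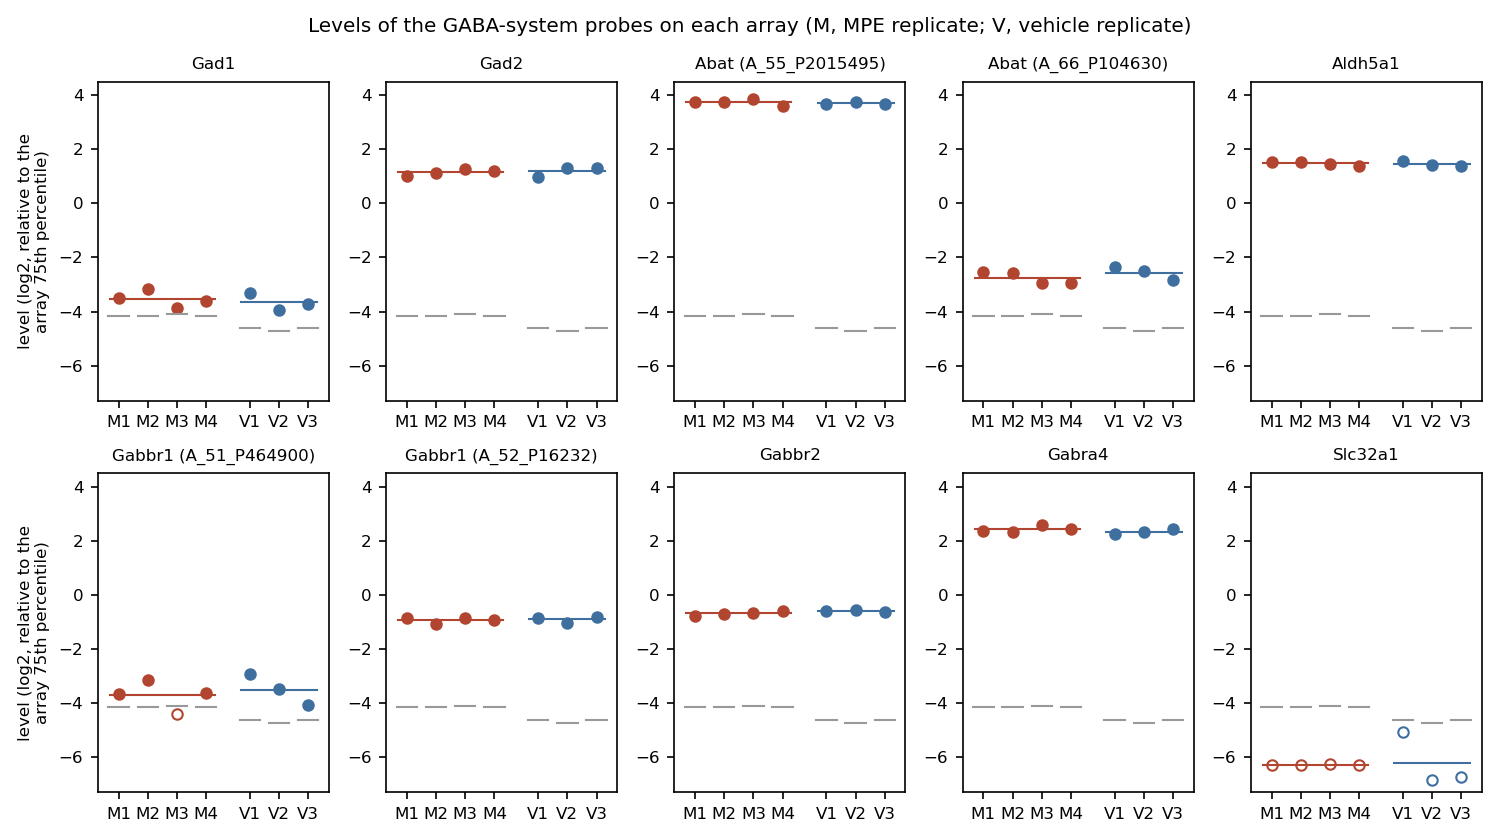
Level of each of the 10 probes on each array, as log2 processed intensity relative to the array's 75th percentile. Red points are MPE arrays, blue points are vehicle arrays, filled points are well above background, open points are not, coloured lines are group means and grey ticks mark the lowest level counted as well above background on that array. The groups overlap for all 10 probes, and the Slc32a1 points are open on every array; heights in different panels are not comparable as transcript amounts.

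For synthesis, the Gad2 probe was bright. The Gad2 level was 1.02, 1.14, 1.27 and 1.21 on MPE arrays 1 to 4, and 0.98, 1.29 and 1.30 on vehicle arrays 1 to 3. The lowest value of each group was on its replicate 1, and the groups overlapped over nearly their whole range. Gad2 intensity was 36.3 to 65.0 times the lowest intensity counted as well above background on the same array. The Gad2 mean was 1.16 ± 0.11 with MPE (SD, n = 4) and 1.19 ± 0.18 with vehicle (SD, n = 3), or 0.981 times vehicle (log2 difference -0.03, 95% interval -0.27 to 0.22, limma adjusted p = 1.00).

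Gad1, the other glutamate decarboxylase, had signal close to background. Its level was -3.51, -3.16, -3.86 and -3.62 on MPE arrays 1 to 4, and -3.30, -3.93 and -3.71 on vehicle arrays 1 to 3. The highest value was on MPE array 2 and the lowest on vehicle array 2, with overlapping groups. Gad1 intensity was only 1.18 to 2.50 times the lowest intensity counted as well above background. Its mean was -3.54 ± 0.29 with MPE (SD, n = 4) and -3.65 ± 0.32 with vehicle (SD, n = 3), or 1.08 times vehicle. The 95% interval of the log2 difference, -0.37 to 0.59, was the widest of the 7 genes (limma adjusted p = 1.00).

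For breakdown, both enzymes of the GABA shunt were measured well above background. The brighter Abat probe (A_55_P2015495), designed on the transcript NM_172961, stood at 3.73, 3.76, 3.86 and 3.61 on MPE arrays 1 to 4, and at 3.66, 3.76 and 3.68 on vehicle arrays 1 to 3. All vehicle values lay inside the MPE range. This probe averaged 3.74 ± 0.10 with MPE (SD, n = 4) and 3.70 ± 0.05 with vehicle (SD, n = 3), or 1.03 times vehicle (log2 difference 0.04, 95% interval -0.13 to 0.21, limma adjusted p = 1.00). The second Abat probe (A_66_P104630), on the transcript NM_001170978, stood at -2.55, -2.59, -2.94 and -2.94 on MPE arrays 1 to 4, and at -2.36, -2.52 and -2.84 on vehicle arrays 1 to 3. The Abat probes thus differed in sign: with every probe fitted as its own feature, the second probe differed by -0.18 on the log2 scale (SE 0.15, limma adjusted p = 1.00) and the first by 0.04 (SE 0.07), neither past the threshold. The second Abat probe was 2.24 to 4.79 times the lowest intensity counted as well above background, against 219 to 359 times for the first.

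Aldh5a1, which oxidises the product of GABA transaminase to succinate, stood at 1.54, 1.53, 1.44 and 1.38 on MPE arrays 1 to 4. On vehicle arrays 1 to 3 the Aldh5a1 level was 1.56, 1.41 and 1.39. The highest value of each group was on replicate 1, and the groups overlapped. The Aldh5a1 mean was 1.48 ± 0.08 with MPE (SD, n = 4) and 1.45 ± 0.09 with vehicle (SD, n = 3), or 1.02 times vehicle (log2 difference 0.02, 95% interval -0.14 to 0.19, limma adjusted p = 1.00).

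For reception through the GABA-B receptor, Gabbr1 encodes the subunit that binds GABA and Gabbr2 the subunit that couples to the G protein, and a working receptor needs both. The brighter Gabbr1 probe (A_52_P16232) stood at -0.85, -1.09, -0.84 and -0.91 on MPE arrays 1 to 4, and at -0.84, -1.06 and -0.81 on vehicle arrays 1 to 3. In both groups replicate 2 was lowest, and the ranges nearly coincided. This gave 0.985 times vehicle (log2 difference -0.02, 95% interval -0.24 to 0.19, limma adjusted p = 1.00). The second Gabbr1 probe (A_51_P464900), on the same transcript NM_019439, was dimmer and more scattered, at -3.65, -3.14, -4.39 and -3.61 on MPE arrays 1 to 4 and at -2.94, -3.49 and -4.08 on vehicle arrays 1 to 3. It was well above background on 6 of 7 arrays, the exception being MPE array 3, where its intensity was 0.822 times the lowest intensity counted as well above background. Fitted as its own feature, it differed by -0.19 on the log2 scale (SE 0.35, limma adjusted p = 1.00).

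Gabbr2 had the smallest unadjusted p among the 7 genes tested. The Gabbr2 level was -0.78, -0.70, -0.68 and -0.60 on MPE arrays 1 to 4, and -0.59, -0.57 and -0.64 on vehicle arrays 1 to 3. Only MPE array 4 reached into the vehicle range, and the other 3 MPE arrays lay below it. Gabbr2 averaged -0.69 ± 0.07 with MPE (SD, n = 4) and -0.60 ± 0.04 with vehicle (SD, n = 3). This was 0.941 times vehicle, a log2 difference of -0.09 with a 95% interval of -0.23 to 0.05, which did not pass (limma unadjusted p = 0.181, adjusted p = 1.00).

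For reception through chloride channels, Gabra4 encodes the alpha4 subunit, found in the brain mainly in receptors outside synapses. The Gabra4 level was 2.34, 2.32, 2.58 and 2.42 on MPE arrays 1 to 4, and 2.26, 2.30 and 2.42 on vehicle arrays 1 to 3. MPE array 3 was highest and vehicle array 1 lowest, and MPE arrays 1, 2 and 4 lay inside the vehicle range. The Gabra4 mean was 2.42 ± 0.12 with MPE (SD, n = 4) and 2.33 ± 0.08 with vehicle (SD, n = 3), or 1.06 times vehicle (log2 difference 0.09, 95% interval -0.10 to 0.28, limma adjusted p = 1.00). Gabra4 intensity was 88.9 to 131 times the lowest intensity counted as well above background.

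Slc32a1 loads GABA into synaptic vesicles of inhibitory neurons. Its probe stood at -6.28, -6.29, -6.26 and -6.27 on MPE arrays 1 to 4, and at -5.05, -6.84 and -6.73 on vehicle arrays 1 to 3. Vehicle array 1 was highest, at 0.740 times the lowest intensity counted as well above background there. On the other arrays the level was close to the 25th percentile of all probes of that array, which was -6.32 to -6.28 on the 4 MPE arrays and -6.83 and -6.73 on vehicle arrays 2 and 3. The probe was well above background on no array of either group, so no fold was computed. A transcript below this detection limit is not excluded by these values.

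The comparison of MPE with vehicle asks whether transcripts of the GABA system differ after 3 days with the extract. Of the 8 genes, 7 passed the filter of at least 3 arrays well above background, and 0 of these 7 passed limma's adjusted threshold of 0.05, against 0.00453% of the 22060 genes tested (1 gene, higher with MPE). All counts of genes tested include probes without a gene symbol, each array name of such probes counting as 1 gene. At an unadjusted p under 0.05, 0 of 7 passed, against 4.11% of all genes tested. The arrays of MPE and vehicle overlapped for all 10 probes, while they did not overlap for 4.53% of all genes tested. Gad1, Abat, Aldh5a1 and Gabra4 had estimates above vehicle and Gad2, Gabbr1 and Gabbr2 below it. The median difference of the 7 genes was 0.02 on the log2 scale, against -0.02 over all genes tested. These intervals are those of the brightest probe of each gene. For 6 of the 7 genes, all but Gad1, the 95% interval excluded changes of 1.5-fold or more either way, and for all 7 it excluded changes of 2-fold. The second Gabbr1 probe, fitted as its own feature, had a log2 interval of -1.03 to 0.64. That interval includes 1.5-fold either way and 2-fold lower. An interval inside 1.5-fold was reached by 80.7% of all genes tested.

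**Figure D2:**
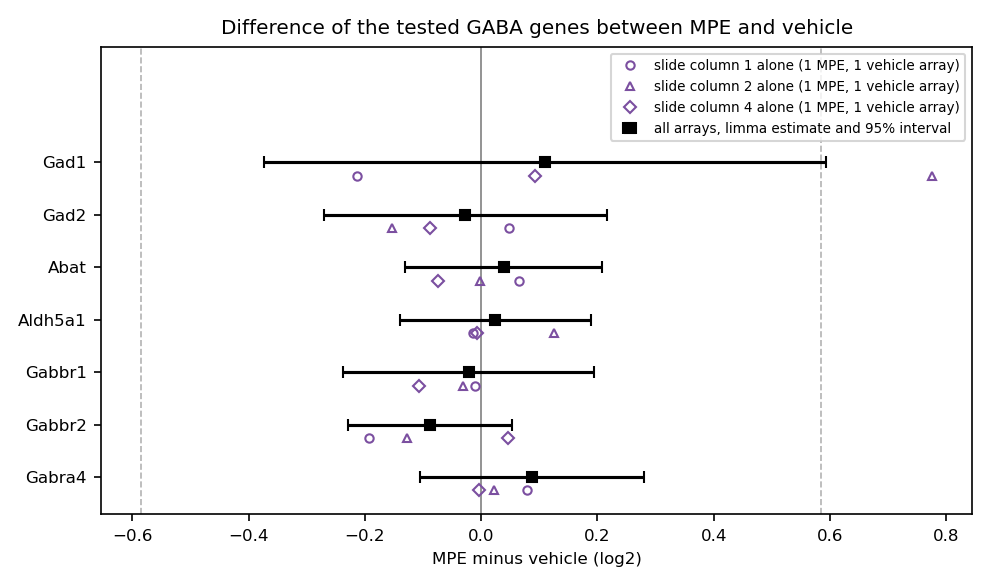
MPE minus vehicle, in log2 units, for the 7 tested genes. Black squares with bars are the limma estimate over all 7 arrays with its 95% interval, purple open symbols are the differences within slide columns 1, 2 and 4, dashed lines mark 1.5-fold in each direction, and every interval includes 0.

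Slide columns 1, 2 and 4 each held 1 MPE and 1 vehicle array, which gives 3 differences per gene within a column and no test. Gad1 had log2 differences of -0.21, 0.78 and 0.09 in columns 1, 2 and 4. Gad2 had 0.05, -0.15 and -0.09 there. These columns thus did not give 1 direction for either synthesising enzyme. For the enzymes of breakdown, Abat had 0.07, -0.00 and -0.07, and Aldh5a1 had -0.01, 0.13 and -0.01. Gabbr1 had -0.01, -0.03 and -0.11, the only one of the 7 genes with the same sign in all 3 columns. Gabbr2 had -0.19, -0.13 and 0.05, and Gabra4 had 0.08, 0.02 and -0.00. In a fit with slide column as a block, Abat turned from 0.04 over all arrays to -0.00, and no gene passed.

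The spread between arrays of 1 group differed between probes. Over the 9 probes that passed the filter, the SD within a group lay between 0.04 (Gabbr2, vehicle) and 0.57 (the second Gabbr1 probe, vehicle). The 3 probes nearest to background, those of Gad1, the second of Abat and the second of Gabbr1, had SDs of 0.22 to 0.57, and the other 6 had SDs of 0.04 to 0.18. The authors' normalized log2 values of the same probes ran from 9.50 to 9.82 for Gad2 and from 4.60 to 5.38 for Gad1 over the 7 arrays. Fitted in place of the scanner signal, they moved the 7 differences by at most 0.084. The largest move was that of Gad1, from 0.110 to 0.026.

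**Figure D3:**
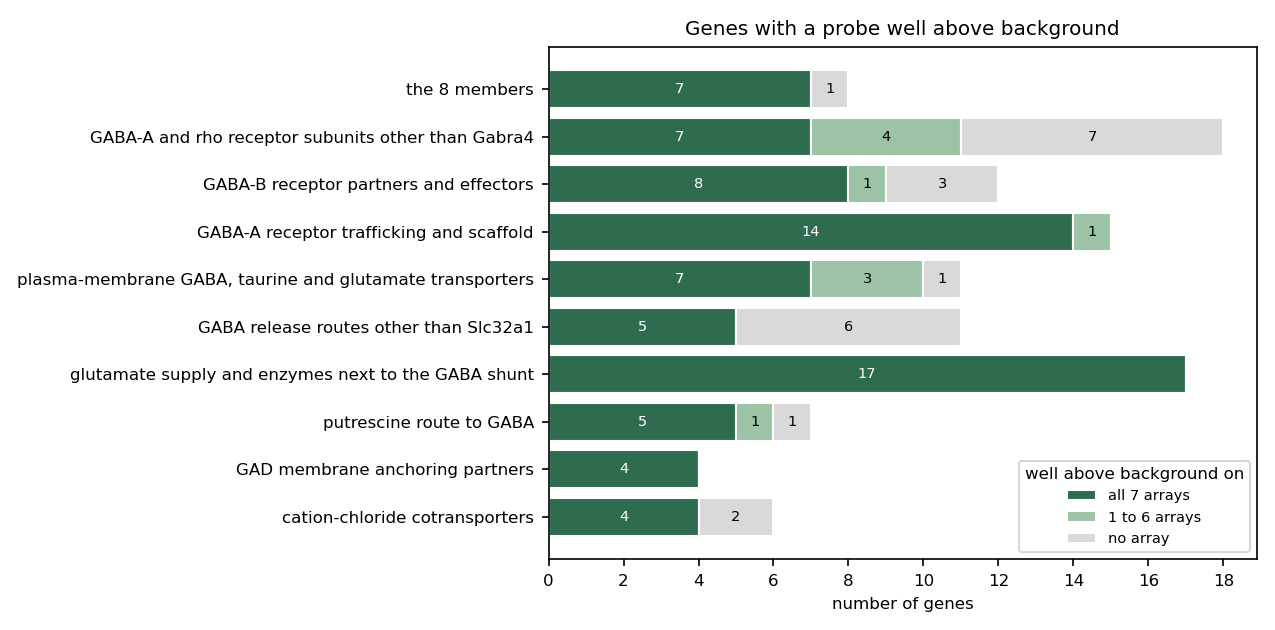
Number of genes, in each list of the GABA pathway, with a probe well above background on all 7 arrays (dark), on 1 to 6 arrays (light) or on none (grey). All 17 genes of glutamate supply are dark, while the lists of receptor subunits and of release routes each hold 6 or more grey genes.

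Around these 8 genes, 9 lists of other genes of GABA signalling and metabolism, 101 genes in all, were examined for detection. Of these, 71 had a probe well above background on all 7 arrays, 10 on some arrays and 20 on none. Among the other subunits of GABA-A and rho receptors, Gabra5, Gabrd, Gabrq, Gabrr1 and Gabrr2 were detected on all 7 arrays. Gabra2, Gabra6, Gabrb1, Gabrg1, Gabrg3 and Gabre were detected on none. Gabra3, Gabrp and Gabrr3 were detected on 1 array each and Gabrb2 on 3, without any of their probes reaching the filter.

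Next to the GABA-B receptor, the auxiliary subunit genes Kctd8, Kctd12 and Kctd12b and the inhibitory G protein genes Gnai1, Gnai2, Gnai3 and Gnao1 were detected on all 7 arrays. Kctd16, a further auxiliary subunit gene, was detected on 0 MPE arrays and 2 vehicle arrays, and was not tested. Dim probes met a higher threshold with MPE, so this split need not be a difference in level. Of the potassium channel genes that GABA-B receptors open in neurons, Kcnj6 was detected on all 7 arrays, and Kcnj3, Kcnj5 and Kcnj9 on none. For uptake, the GABA and taurine carriers Slc6a12, Slc6a13 and Slc6a6 were detected on all 7 arrays, and Slc6a11 on none. For release, the volume-regulated anion channel subunits Lrrc8a, Lrrc8b and Lrrc8d and the vesicular monoamine transporters Slc18a1 and Slc18a2 were detected on all arrays. The other subunits of that channel, Lrrc8c and Lrrc8e, the anion channel Best1 and the vesicular glutamate transporters Slc17a6, Slc17a7 and Slc17a8 were, like Slc32a1, detected on none. All 17 genes that supply glutamate or flank the GABA shunt were detected on all arrays, among them the glutaminase Gls2 and the glutamate dehydrogenase Glud1. Of the chloride cotransporters, Slc12a2, which loads chloride into cells, and Slc12a5, which removes it in neurons, were both detected on all 7 arrays, and Slc12a1 and Slc12a7 on none.

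In these lists 73 genes could be tested, and 0 passed limma's adjusted threshold in either direction, against 0.00453% of all genes tested. At an unadjusted p under 0.05, 1 of 73 passed, against 4.11% of all genes tested. Estimates were above vehicle for 32 and below for 41, with a median of -0.03 on the log2 scale against -0.02 for all genes, and list medians lay between -0.06 and 0.03. The 95% interval lay within 1.5-fold for 67 of the 73. Each limma adjusted p in these lists was 1.00.

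**Figure D4:**
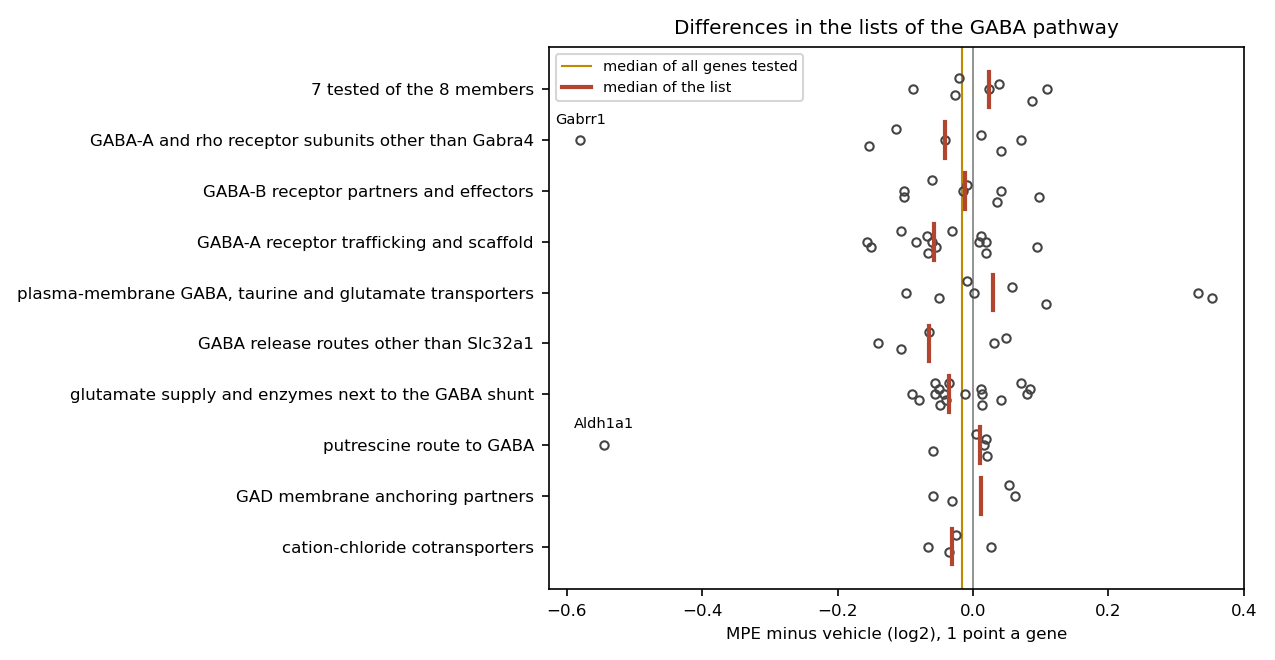
MPE minus vehicle, in log2 units, for every tested gene of the 9 lists (1 open point a gene) with the 7 tested members above them. Red bars are list medians and the yellow line is the median of all genes tested, -0.02; most points lie within 0.2 of 0, and Gabrr1 and Aldh1a1 are labelled.

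The 1 gene under an unadjusted p of 0.05 was Gabrr1, which encodes the rho1 subunit of GABA-gated chloride channels, best known from the retina. The Gabrr1 level was -3.60, -3.34, -3.80 and -3.60 on MPE arrays 1 to 4, and -2.75, -2.85 and -3.41 on vehicle arrays 1 to 3. MPE array 2 overlapped with vehicle array 3, and the other MPE arrays lay below all vehicle arrays. The Gabrr1 log2 difference was -0.58 (SE 0.18, limma unadjusted p = 0.0149, adjusted p = 1.00), and its second probe gave -0.41.

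In the other lists, up to 2 genes each are named by the smallest unadjusted p, none of which passed. Aldh1a1, an aldehyde dehydrogenase of the putrescine route to GABA, was well above background on all 3 vehicle arrays and on no MPE array, and entered the test through the vehicle arrays alone. The vehicle mean was 1.02-fold above an upper bound set for the MPE mean, and only vehicle array 1, at -3.77, lay above that bound. For that bound, each MPE array was given the smallest signal flagged as well above background on it, unless the Aldh1a1 signal itself was larger. The groups overlapped, with MPE array 3 at -4.13 and vehicle arrays 2 and 3 at -4.34 and -4.25, and the 95% interval of the difference included 0. These 2 vehicle levels lay below the lowest level counted as well above background on every MPE array (-4.16 to -4.11). Maob, the monoamine oxidase of the same route, had a log2 difference of -0.06 (SE 0.08). The transporter gene Slc6a12 had -0.10 (SE 0.08). Among release routes, Lrrc8a, the obligate subunit of its channel, had -0.11 (SE 0.10) and Slc18a2 had -0.14 (SE 0.09).

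For GABA-B partners, Kctd8 had a log2 difference of 0.10 (SE 0.10) and Gnai2 had -0.10 (SE 0.10). Lhfpl4, which helps to cluster GABA-A receptors at inhibitory synapses, had -0.08 (SE 0.05), and Plcl1, which binds GABA-A receptor subunits, had -0.16 (SE 0.11). The aspartate aminotransferase Got1 had 0.08 (SE 0.06) and the succinate dehydrogenase subunit Sdha had 0.07 (SE 0.06). The palmitoyltransferase gene Zdhhc13 had 0.05 (SE 0.07) and the chaperone Hspa8 had -0.06 (SE 0.07). The chloride cotransporter Slc12a4 had -0.04 (SE 0.06). All of these values lay within 2 SE of 0.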

How the data were processed

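Per the labels' protocols, 100 ng of total RNA per sample was labelled with Cy3 for Agilent arrays read in 1 colour. The deposited intensities come from Agilent Feature Extraction, version 11.5.1.1 per the file headers and 10.5.1.1 per the submitters' processing notes. Per the file headers, processed intensity is background-subtracted and detrended within the array, and median spot and background intensities are raw. The authors' deposited table holds normalized log2 values (all columns have a median of 4.44), and the sources used here name no tool for it.

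Spots of controls and 611 values flagged as outliers were dropped, and 0 spots were saturated. Log2 processed intensities were averaged per probe, and the 75th percentile of the array was subtracted. A probe counts as well above background by the deposited flag. Probes so flagged on at least 3 arrays, with a value on all 7, were kept, and a gene was represented by its probe with the highest mean. Of 56605 probes, 32994 were named through RefSeq accessions of GRCm38.p6 (names only). Probes under other accessions may also belong to these genes and were not used. Differences between MPE and vehicle were fitted with limma 3.58.1 (lmFit, eBayes; R 4.3.3), with Benjamini-Hochberg adjustment over 22060 genes at 0.05. The fit was tested on simulated data. Named genes were the 8 members and, per list, any called gene and up to 2 with the smallest p; some list genes are not reported here. Members and lists were chosen with earlier results of these data known. The alternatives covered background correction, scaling, filters, choice of probe, the variance model, blocks, thresholds and arrays left out. The number of arrays limits the precision.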

Additional observations from a re-analysis of the deposited data

Results flagged for a closer look

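Among the 4 MPE arrays, replicate 1 stood apart from the others for Lrrc8a and Maob. The Lrrc8a level was 3.95 there, against 3.66 to 3.71 on the other 3 MPE arrays. The Maob level was 3.65 there, against 3.49 to 3.52 on the other 3. Of 27 probes checked in this way 2 stood apart, where chance would give about 1.35.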

How the results depend on the processing

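None of the 7 tested genes passed the adjusted threshold under any of the 21 alternatives, with adjusted p from 0.433 upwards and no difference beyond 0.29 on the log2 scale. The direction held in 131 of 147 cases, a count that includes cases where it could not change. A changed filter, every probe as a feature and the trended robust variance left each estimate as it was. So did the mean or lowest probe for genes with 1 probe. The replicate block gave the same estimates as leaving out MPE replicate 4, and the slide column block those of leaving out MPE replicate 3. Abat turned to -0.031 with median scaling, -0.073 with the mean of its probes, -0.18 with its dimmer probe and -0.0031 with slide column as a block. Aldh5a1 turned to -0.046 with median scaling, and Gabbr1 to 0.021 with array weights. Median scaling moved all genes alike, their median going to -0.09. With each array left out in turn, Gad1 ranged from -0.033 to 0.29, Gad2 from -0.13 to 0.028, Abat from -0.0031 to 0.082, Aldh5a1 from -0.0062 to 0.078, Gabbr1 from -0.10 to 0.033, Gabbr2 from -0.12 to -0.06 and Gabra4 from 0.03 to 0.13. Gad1 was 0.29 without vehicle replicate 1 and below 0 without vehicle replicate 2 or MPE replicate 2.

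Over all genes, 1 was called higher and 0 lower. The calls were 0 higher with normexp, with detection on all 7 arrays and with the replicate block or a block on slide column, 3 higher with a trended robust variance or array weights, 2 lower with the lowest probe or every probe as a feature and 1 lower with array weights. Leaving out an array gave 0 to 3 higher and 0 to 1 lower. Without a detection filter 45478 genes were tested, of which 9619 were called higher and 349 lower. Without the filter 6 of the 101 list genes were called, a smaller share than over all genes. The 2 sets are unlike in detection. A probe was well above background on all 7 arrays for 71 of the 101 list genes and for 19713 of the 45478 genes. All 6 called list genes were well above background on no array, with log2 differences of 0.47 to 0.57. With the replicate block, Gad1 stood at 0.14 and Gad2 at -0.04, and it changed no call of these genes. Deviations of same-numbered arrays correlated at 0.25, 0.05 and 0.41, and MPE replicate 2 correlated best with vehicle replicate 1, so the numbers were not taken as pairs. Normexp used median spot intensity, as mean spot intensity was not used here. Dim probes (among them Gad1, the second of Abat and of Gabbr1 and, in the lists, Gabrr1 and Aldh1a1) limit what these arrays can show.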
